A study of Homo sapiens with 38 samples.

Results

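RNA from RKO cells treated with the LSD1 inhibitor NCD38 for 30 days was compared with RNA from RKO cells kept in DMSO for the same time. Each condition was represented by 1 library, so 2 of the 8 RNA-seq libraries enter the comparison. Of 25594 entries in the deposited table, 25504 had a name that occurred once, and 10865 of these had a mean FPKM (a fragment count scaled to transcript length and library size) of at least 1 over the 8 libraries. These 10865 genes are called expressed. RKO is a human colorectal cancer cell line, and every library came from it. The treated cells received 2 μM NCD38 in 0.1% DMSO, and the control cells received DMSO alone. The other RNA-seq libraries were NCD38-β2P4 and NCD38-β2PIPP on day 30, in which NCD38 is joined to a pyrrole-imidazole polyamide that binds the DNA minor groove, and DMSO, NCD38 and both conjugates on day 4. Because no condition was repeated, the spread between cultures is unknown, and differences are described by their size and direction and by comparison with the other libraries.

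LSD1, the product of KDM1A, is an enzyme that removes methyl groups from lysine 4 of histone H3, most often as part of a repressive complex with CoREST and histone deacetylases. Its inhibition is therefore studied for genes that become more active, either at their promoters or at enhancers.

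The depth of the 8 libraries, estimated from the FPKM of single fragments, was 12.5 to 22.9 in units of 1000000 fragments, with 18.4 for DMSO and 16.9 for NCD38 on day 30. Of 8 markers chosen for an epithelial colorectal line, 4 were expressed (KRT18, KRT8, CDX2 and EPCAM, summed level with the others 149 FPKM with DMSO and 119 with NCD38). CDH1, KRT19, VIL1 and KRT20, which many such lines express, were at or near 0. Of 14 blood cell markers, CD68 was the 1 expressed, and its FPKM was 201 with DMSO and 209 with NCD38. PTPRC, a defining blood cell marker, was listed at 0, and 0 of 11 markers of fibroblasts and endothelium were expressed. The DMSO libraries of day 30 and day 4 differed from each other by 1.5-fold or more at 6271 of the 9808 genes whose transcript had 500 nt or more (63.9%), so ratios over the day 4 library are given beside the results, and many have the other sign.

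KDM1A, the gene of the inhibited enzyme, was at 42.0 FPKM in the DMSO library of day 30, 46.1 in the NCD38 library, 45.6 in that of NCD38-β2P4 and 39.4 in that of NCD38-β2PIPP. Its level with NCD38 was thus within 1.5-fold of each other library of that day (log2 ratio of FPKM + 1 over DMSO, 0.13, and −0.29 over DMSO of day 4). Of 19 expressed genes for LSD1, CoREST and their partners, 0 were 1.5-fold higher or lower, with a median log2 ratio of 0.13 beside 0.06 for all expressed genes. RCOR1, which encodes CoREST, was at 4.06 FPKM with DMSO and 5.59 with NCD38 (log2 ratio 0.38). ZMYM3, a zinc finger protein found with the complex, was at 5.78 and 3.91 (log2 ratio −0.47).

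All ratios below are log2 ratios of FPKM + 1, NCD38 over DMSO on day 30, unless another scale is named. A ratio of 2-fold or more was found for 109 of the 10865 expressed genes (1.0%) in the direction of NCD38 and for 71 (0.653%) in the direction of DMSO. At 1.5-fold, 435 (4.00%) were higher and 304 (2.80%) lower. More genes lay above 0 (59.0%) than below it (40.0%). Many of the largest ratios came from very short RNAs. The 284 expressed entries for microRNAs, small nucleolar RNAs and other small RNAs held 62 of the genes 2-fold higher and 29 of those 2-fold lower, and 59 of these 91 were listed at 0 in the DMSO or the NCD38 library. A poly(A)-selected library is not made to measure such RNAs. Among the 9808 expressed genes with a matched transcript of at least 500 nt, 310 (3.16%) were 1.5-fold higher and 219 (2.23%) 1.5-fold lower. Counts and medians of the gene lists below cover all 10865 expressed genes, and shorter transcripts are named where a list rests on them. The counts stand beside these shares of all expressed genes: 59.0% above 0, 40.0% below, 4.00% at least 1.5-fold higher and 2.80% lower. NCD38 gave the highest of the 4 day 30 levels at 36.4% of all expressed genes and the lowest at 26.4%.

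The NCD38 library stood apart from the other 3 libraries of day 30. In 77 of the 9808 genes (0.785%) the level with NCD38 exceeded by 1.5-fold or more that in each of the DMSO, NCD38-β2P4 and NCD38-β2PIPP libraries, and in 129 (1.32%) it was 1.5-fold or more below each. For the DMSO library the same counts were 0 and 9, for NCD38-β2P4 4 and 5, and for NCD38-β2PIPP 3 and 30. Pairs of libraries that included NCD38 differed by 1.5-fold or more at 5.39% to 7.14% of the genes. The 3 pairs without it differed at 1.04% to 2.29%. The conjugates had been given at the same dose and for the same time. With 1 library per condition, a property of the compound and a property of this culture or library cannot be told apart.

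**Figure D1:**
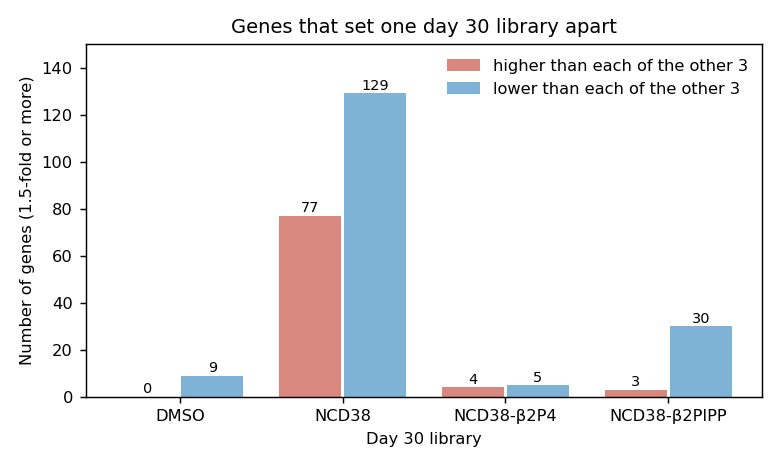
Number of genes whose transcript had 500 nt or more (y axis) that were at least 1.5-fold higher (red) or lower (blue) in 1 library of day 30 than in each of the other 3, for each library (x axis). NCD38 had 77 and 129 such genes, and the largest count of the other libraries was 30.

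The genes with the highest ratios whose sign was the same against DMSO of day 4 were mostly mitotic. CENPA, the histone H3 variant of centromeres, was at 3.52 FPKM with DMSO and 11.0 with NCD38 (log2 ratio 1.41), and MKI67, the proliferation antigen Ki-67, at 4.88 and 13.1 (1.26). The same held for CENPF, ANLN, BUB1, DLGAP5, NEK2, AURKA and CCNB2, with log2 ratios from 1.07 for CCNB2 to 1.22 for CENPF. Over DMSO of day 4 the ratios ran from 0.08 for CCNB2 and 0.09 for AURKA, almost no difference, to 3.33 for CENPF. These genes belong to the G2/M list, of which 65 members were expressed, 46 were 1.5-fold higher and 0 lower, with a median of 0.79. NCD38 gave the highest level of the 4 day 30 libraries at 59 of the 65, beside 36.4% of all expressed genes. The conjugates were also above DMSO, with list medians of 0.34 for NCD38-β2P4 and 0.29 for NCD38-β2PIPP. The list median of NCD38 on day 30 over DMSO of day 4 was 0.18. NCD38 on day 4 over its own DMSO library gave −0.19, beside −0.21 for all expressed genes. PLK1, a mitotic kinase, had the largest ratio of the list (4.33 FPKM with DMSO and 15.8 with NCD38, log2 ratio 1.66), but its level was 81.6 with DMSO on day 4, so that the ratio over that library was −2.30.

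A short element was common in the promoters of the list, though not in all of them. The table of promoters from RefSeq (GRCh38.p14) holds 250 bases before and 50 bases after each start, and 7979 of the 9808 genes were matched to it by symbol. The cell cycle homology region, searched as TTTGAA on both strands, occurred in 35 of 53 promoters of the G2/M list (66.0%), in 8.84% of the 7979 promoters and in 15.4% of all 27305 promoters of the table. It also occurred in 35 of 216 promoters (16.2%) of the genes 1.5-fold higher that are outside the list, and in 10 of 166 (6.02%) of the genes 1.5-fold lower. The list was chosen from G2/M genes, so its share describes the list and not the comparison. Stretches before the start of 4 of the genes are given 5′ to 3′ on the strand of the gene, with the element in capitals (TTCAAA where it lies on the other strand), since it lies close to the start in each of them. They lie at chr2:26786018-26786055 for CENPA, chr10:128126427-128126490 for MKI67, chr7:36389816-36389861 for ANLN and chr15:59105097-59105142 for CCNB2.
CENPA: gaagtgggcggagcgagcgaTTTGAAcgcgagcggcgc
MKI67: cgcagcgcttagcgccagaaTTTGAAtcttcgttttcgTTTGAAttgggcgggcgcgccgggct
ANLN: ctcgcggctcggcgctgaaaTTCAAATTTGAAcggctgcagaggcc
CCNB2: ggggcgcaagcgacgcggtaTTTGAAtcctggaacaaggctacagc

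Outside the mitotic genes, the highest ratios belonged to a mixed set. CTGF, a secreted matrix-associated protein and a target of the YAP coactivator, was at 0.444 FPKM with DMSO, 0.522 with NCD38-β2P4, 0.568 with NCD38-β2PIPP and 2.47 with NCD38 (log2 ratio 1.26). Its level was low in all 4 libraries, and NCD38 was the highest. ADAM9, a membrane-bound protease that sheds surface proteins, was at 6.0 with DMSO, 7.45 and 7.11 with the conjugates and 14.1 with NCD38 (1.10). PGRMC1, a haem-binding membrane protein, was at 20.3, 26.3, 33.5 and 46.1 in the same order (1.15). The conjugates lay between DMSO and NCD38 for PGRMC1, and close to DMSO for ADAM9. HMSD (1.40), ARHGAP11B (1.12) and COMMD3-BMI1 (1.12) complete the 15 genes, and both conjugates were above DMSO for each. With NCD38-β2P4 and NCD38-β2PIPP, the ratios over DMSO were 1.24 and 0.97 for HMSD. They were 0.67 and 0.53 for ARHGAP11B, and 0.80 and 1.07 for COMMD3-BMI1. NCD38 was above the higher conjugate by a log2 ratio of only 0.16 for HMSD and 0.04 for COMMD3-BMI1. HMSD and COMMD3-BMI1 thus did not set NCD38 apart from the conjugates. ARHGAP11B has a near-identical copy and COMMD3-BMI1 is a read-through of neighbouring genes, so that fragments of these 2 entries could have been split between genes.

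Genes of the actin cytoskeleton that the factor SRF and its coactivators control were higher as a group. SRF binds the CArG box and answers both to free actin and to growth factor signals. Of 29 expressed members, 26 lay above 0 (89.7%, beside 59.0% of all expressed genes), and the median was 0.38. In the list 5 were 1.5-fold higher and 2 lower, beside 4.00% and 2.80% of all expressed genes. NCD38 gave the highest level of the 4 day 30 libraries at 26 of 29, beside 36.4% of all expressed genes. ACTB, which encodes beta-actin, was at 606 FPKM with DMSO, 687 with NCD38-β2P4, 467 with NCD38-β2PIPP and 1159.6 with NCD38 (0.94). FLNA, filamin A, which crosslinks actin filaments, was at 40.7, 37.2, 32.4 and 79.2 in the same order (0.94). For both genes the NCD38 library was the highest of the day, although the other 3 also differed among themselves. TAGLN, an actin-binding protein of smooth muscle, was at 2.33 with DMSO and 4.76 with NCD38 (0.79). The lowest members were TMSB4X, thymosin beta 4, which holds actin monomers (101 with DMSO and 49.3 with NCD38, −1.01), ACTA2 (4.65 and 2.71, −0.61) and FHL2 (262 and 261, −0.01).

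The direction of the actin genes did not hold against day 4. Over the DMSO library of day 4, the median of the list was −0.75, the ratio of ACTB −1.42 and that of FLNA −2.03, since ACTB was at 3115 and FLNA at 326 FPKM with DMSO on day 4. TMSB4X turned to 0.47. NCD38 on day 4 over its own DMSO library gave a median of 0.00 for the list, 0.19 for ACTB and 0.14 for FLNA.

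The CArG box, written here by name alone, occurred in 6 of 26 promoters of this list (23.1%), in 1.0% of the 7979 promoters and in 1.29% of all 27305. The list was chosen from genes known to answer to SRF, so the share describes the list and not the comparison. The matches before the start of 3 genes of the list and of EGR1, an SRF target of the next list, are given with the box in capitals. EGR1 is shown because it holds 2 boxes in 1 stretch, and ACTG1 because the same letters occur in it and in EGR1. The stretches are chrX:154374699-154374748 (minus strand) for FLNA, chr19:16067345-16067394 for TPM4, chr17:81512864-81512913 (minus strand) for ACTG1 and chr5:138465354-138465425 for EGR1, all on GRCh38.p14.
FLNA: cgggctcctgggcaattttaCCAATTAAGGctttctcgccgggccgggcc
TPM4: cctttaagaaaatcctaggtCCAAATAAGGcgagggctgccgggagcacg
ACTG1: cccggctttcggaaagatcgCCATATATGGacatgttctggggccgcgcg
EGR1: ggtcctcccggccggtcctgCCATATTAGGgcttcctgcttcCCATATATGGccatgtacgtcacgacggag
TPM4, tropomyosin 4, was at 179 FPKM with DMSO and 289 with NCD38 (0.69). ACTG1, gamma-actin, was at 1515 and 1992 (0.39, and −1.21 over DMSO of day 4), under 1.5-fold. FHL2, which held the box too, did not differ by 1.5-fold, so members with the box spanned the range from −0.01 to 0.94.

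Immediate early genes, transcription factors and feedback regulators that growth signals induce within minutes, were also higher. Of 22 expressed members, 19 lay above 0, 5 were 1.5-fold higher and 0 lower, and the median was 0.36. The shares of all expressed genes were 59.0%, 4.00% and 2.80% in the same order. EGR1 was at 18.8 FPKM with DMSO, 23.1 with NCD38-β2P4, 18.9 with NCD38-β2PIPP and 40.8 with NCD38 (1.08). DUSP2, a phosphatase that switches off MAP kinases, was at 15.3 with DMSO and 26.1 with NCD38 (0.73), and IER2 at 54.2 and 90.1 (0.72). BTG2 (−0.40), JUND (−0.21) and IER5 (−0.05) were the lowest members. On day 4 EGR1 was at 95.1 with DMSO and 58.9 with NCD38, and the ratio of NCD38 on day 30 over DMSO on day 4 was −1.20. The ratio over that library was −0.80 for IER2 and 0.32 for DUSP2, and the median of the list was −0.23.

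Lists of genes downstream of ERK and YAP had smaller medians, and the list of TGF-β targets had a similar one. Among all expressed genes, 59.0% lay above 0 and 4.00% were 1.5-fold higher. Of 27 genes of ERK output, 22 lay above 0 and 3 were 1.5-fold higher (median 0.25): EGR1, IER3 and EPHA2, a receptor tyrosine kinase that was at 21.7 FPKM with DMSO and 36.8 with NCD38 (0.74, and −0.87 over DMSO of day 4). DUSP6, a classical feedback phosphatase of ERK, was at 45.7 and 42.5 (−0.10, and 1.04 over DMSO of day 4). Of 15 TGF-β targets, 12 lay above 0 and 3 were 1.5-fold higher (median 0.37). They were ID3 (13.5 and 25.4 FPKM, 0.87) and ID1 (11.8 and 20.4, 0.74), inhibitors of differentiation factors, and FSTL3, an activin antagonist (6.47 and 10.3, 0.60). The ratios over DMSO of day 4 were −1.39 for ID3 and −0.14 for ID1. CDKN2B, a cell cycle inhibitor that TGF-β induces, was at 3.49 and 2.04 (−0.56, and 0.27 over DMSO of day 4). Of 24 YAP targets, 19 lay above 0, and CTGF and CYR61 (99.1 and 151, 0.61) were the 2 past 1.5-fold (median 0.23). The medians over DMSO of day 4 were −0.28 for ERK output, −0.14 for TGF-β targets and 0.20 for YAP targets.

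Genes of cholesterol synthesis and uptake, which the factor SREBP2 drives when sterols are scarce in the membrane, were higher too. Of 28 expressed members, 22 lay above 0, 6 were 1.5-fold higher and 0 lower, and the median was 0.32. Among all expressed genes, 59.0% lay above 0, 4.00% were 1.5-fold higher and 2.80% lower. INSIG1, which holds the SREBP complex in the endoplasmic reticulum, was at 4.91 FPKM with DMSO, 6.03 with NCD38-β2P4, 5.82 with NCD38-β2PIPP and 10.4 with NCD38 (0.95). SQLE, which oxidises squalene, was at 15.7, 19.1, 18.3 and 24.7 in the same order (0.62). MSMO1, a sterol oxidase, was at 6.78, 9.71, 10.1 and 11.9 (0.73). NCD38 was the highest of the 4 day 30 libraries for these genes, and the conjugates lay between it and DMSO.

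Within the synthesis pathway the ratios were uneven. HMGCS1, an early enzyme, was at 4.25 FPKM with DMSO and 5.10 with NCD38 (0.22). The lowest members were TM7SF2 (30.0 and 21.2, −0.48), LSS, which closes the sterol rings (16.2 and 11.6, −0.45), and PMVK (16.4 and 12.5, −0.37). The median of the list over DMSO of day 4 was −0.52, with −0.14 for INSIG1, 0.52 for SQLE and 1.33 for MSMO1.

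Genes of the early secretory pathway were higher to a lesser degree. Their lists and those on the cilium, metabolism and metalloproteinases below were drawn up after the ratios had been seen, so their counts describe what was noticed. Of 35 expressed genes for protein entry into the endoplasmic reticulum, 29 lay above 0, 5 were 1.5-fold higher and 0 lower (median 0.20). The shares of all expressed genes were 59.0%, 4.00% and 2.80% in the same order. RPN2, a subunit of the oligosaccharyltransferase that adds sugars to new proteins, was at 57.0 FPKM with DMSO, 74.8 with NCD38-β2P4, 85.4 with NCD38-β2PIPP and 98.8 with NCD38 (0.78). MAGT1 (0.71) belongs to the same complex, and SRP9 (0.64) to the signal recognition particle. Of 36 cargo receptors and related membrane proteins, 29 lay above 0, 6 were 1.5-fold higher and 0 lower (median 0.24), with TM9SF2 (5.67 with DMSO and 11.9 with NCD38, 0.95), TMEM165 (13.8 and 24.8, 0.80) and YIPF4 (4.45 and 8.36, 0.78) the highest. Both conjugates were above DMSO for RPN2, so for this gene NCD38 was the highest of a graded series rather than alone. The first list as a whole did not set NCD38 apart. Over DMSO, NCD38-β2PIPP had a list median of 0.19, and the other conjugate 0.15. NCD38 was the highest day 30 library at 11 of the 35 genes, beside 36.4% of all expressed genes. For the cargo receptors, NCD38-β2PIPP had a median of 0.20, the other conjugate 0.07, and NCD38 was the highest at 20 of 36. Relative to DMSO of day 4, RPN2 was at −0.58 and TM9SF2 at −0.20, and the medians were 0.68 for the first list and −0.42 for the second.

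The largest decrease among genes with a long transcript was in metalloproteinases. MMP1, the interstitial collagenase, was at 22.7 FPKM with DMSO, 30.2 with NCD38-β2P4, 29.0 with NCD38-β2PIPP and 5.04 with NCD38 on day 30. The log2 ratio was −1.97, and without a pseudocount −2.17 with a 95% half-width of 0.24 that covers counting error only. MMP3 and MMP10, stromelysins that cleave several matrix proteins, were at 3.46 and 2.96 FPKM with DMSO and at 0.879 and 0.247 with NCD38 (−1.25 and −1.67). In the conjugate libraries MMP3 was at 4.67 and 9.62, and MMP10 at 3.07 and 2.55. NCD38 gave the lowest level of the 4 day 30 libraries for all 3 genes. They lie close together on chromosome 11, MMP10 at chr11:102641233-102651359, MMP1 at chr11:102660132-102668891 and MMP3 at chr11:102706532-102714340 (GENCODE 44 on GRCh37).

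The other expressed members of the family did not share this size of change. MMP14, a membrane-bound collagenase, was at 3.39 FPKM with DMSO and 5.36 with NCD38 (0.54, and −1.57 over DMSO of day 4), and TIMP1, the main tissue inhibitor, at 2158 and 1900 (−0.18). Of 27 listed metalloproteinases and inhibitors, 8 were expressed, of which 7 lay below 0 and 3 were 1.5-fold lower (median −0.22). The shares of all expressed genes were 40.0% below 0 and 2.80% lower by 1.5-fold. On day 4 the levels of the 3 lower genes were far smaller. MMP1 was at 1.63 with DMSO and 1.02 with NCD38, MMP3 at 0.0979 and 0.236, and MMP10 at 0.204 and 0.247. The NCD38 library of day 30 was therefore above DMSO of day 4 for MMP1 (1.20), MMP3 (0.78) and MMP10 (0.05).

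Genes of amino acid supply were divided. Targets of ATF4, the factor that raises amino acid synthesis and transport when amino acids are short or the endoplasmic reticulum is stressed, had a median of −0.07, with 24 of 36 expressed members below 0, 6 at least 1.5-fold lower and 1 higher. Among all expressed genes, 40.0% lay below 0, 2.80% were 1.5-fold lower and 4.00% higher. NUPR1, a small stress-induced chromatin protein, was at 17.2 FPKM with DMSO, 9.48 with NCD38-β2P4, 14.2 with NCD38-β2PIPP and 4.86 with NCD38 (−1.63). ASS1, which joins citrulline and aspartate on the way to arginine, was at 53.2, 59.5, 50.7 and 22.1 in the same order (−1.23). PCK2, the mitochondrial phosphoenolpyruvate carboxykinase, was at 43.1, 40.7, 52.5 and 21.0 (−1.0), and ASNS, asparagine synthetase, at 334, 325, 344 and 190.4 (−0.81). For ASS1, PCK2 and ASNS, both conjugate libraries lay close to DMSO and NCD38 lay well below.

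The other 2 genes past 1.5-fold were SLC6A9, a glycine transporter (2.09 and 0.842 FPKM, −0.75), and EIF4EBP1, a brake on cap-dependent translation (467 and 279, −0.74). The highest members were 2 transporters and a factor. SLC38A2, a carrier of small neutral amino acids, was at 44.6 with DMSO and 68.7 with NCD38 (0.61), SLC7A5, a carrier of large neutral ones, at 23.0 and 32.3 (0.48), and the factor ATF5 at 21.0 and 28.0 (0.39), the last 2 under 1.5-fold. ATF4 itself was at 1076 and 879.7 (−0.29), under 1.5-fold. Over DMSO of day 4, ASS1 was also lower (−1.34) and so did PCK2 (−0.71), whereas NUPR1 (1.21) and ASNS (1.42) were higher. SLC7A5 (−1.25) and ATF5 (−0.78) were below that library, SLC38A2 (2.09) was above it, and SLC6A9 was at 0.14 and EIF4EBP1 at 0.01.

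In the synthesis of arginine and proline, the genes that were lower stood at 2 points. ASS1 and ASL, which follow each other in arginine synthesis, had log2 ratios of −1.23 and −0.87, with ASL at 9.68 FPKM with DMSO and 4.83 with NCD38. PYCRL, one of the pyrroline-5-carboxylate reductases that complete proline synthesis, was at 13.9 and 7.64 (−0.79). Of 12 expressed members of the list, 6 lay above 0 and 6 below, and the median was 0.06, equal to that of all expressed genes, and −0.64 over DMSO of day 4.

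Aminoacyl-tRNA synthetases, which load amino acids on tRNAs, leaned in the same direction with small sizes. Of 22 expressed members, 18 lay below 0, 1 was 1.5-fold lower and 0 higher (median −0.21), and NCD38 gave the lowest level of the 4 day 30 libraries at 13. Among all expressed genes, 40.0% lay below 0, 2.80% were 1.5-fold lower and 26.4% were lowest with NCD38. The 1 synthetase past 1.5-fold is thus near the share of all genes. WARS, the tryptophan enzyme, was at 94.9 FPKM with DMSO and 59.4 with NCD38 (−0.67), AARS, the alanine enzyme, at 92.1 and 61.8 (−0.57) and EPRS, the enzyme for glutamate and proline, at 60.3 and 44.9 (−0.42). AIMP2, a scaffold of the multi-enzyme complex, was at 13.2 and 17.3 (0.37). The median over DMSO of day 4 was 0.07, with −0.36 for WARS, −0.51 for AARS, 2.84 for EPRS and −1.03 for AIMP2. The core of the element that ATF4 and its partners bind, searched as TGATGNAA on both strands, occurred in 5 of 14 promoters of this list (35.7%) and in 6 of 29 of the ATF4 list (20.7%), beside 1.5% of the 7979 promoters and 3.67% of all 27305. The ATF4 list was made from known targets, and the other list holds an enzyme class. Stretches of 3 members are shown because the element lies there in both directions, as TGATGAAA in ASNS and reversed as TTGCATCA in AARS and CHAC1. They lie at chr7:97872449-97872496 (minus strand), chr16:70289666-70289713 (minus strand) and chr15:40953242-40953289 on GRCh38.p14.
ASNS: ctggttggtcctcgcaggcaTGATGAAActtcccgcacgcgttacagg
AARS: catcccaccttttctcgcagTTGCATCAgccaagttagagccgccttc
CHAC1: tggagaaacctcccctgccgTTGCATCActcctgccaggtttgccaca
CHAC1, which breaks down glutathione, was at 23.9 FPKM with DMSO and 19.8 with NCD38 (−0.26, and 0.62 over DMSO of day 4), so members with the element were not all past 1.5-fold.

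Metallothioneins, small cysteine-rich proteins that bind zinc and copper, were lower throughout. All 7 expressed metallothionein genes lay below 0, and NCD38 gave the lowest level of the 4 day 30 libraries at each. MT1X was at 660.5 FPKM with DMSO, 748 with NCD38-β2P4, 719 with NCD38-β2PIPP and 328 with NCD38 (−1.01). MT2A, the most abundant, was at 8468, 9294, 8856 and 5935 in the same order (−0.51). MT1G was at 45.7 with DMSO and 23.7 with NCD38 (−0.92), and MT1L at 621 and 336 (−0.89). The genes of this cluster are close copies of each other, so fragments could have been split between them. SLC30A1, a zinc exporter that zinc induces through the same factor, was at 1.87 and 3.57 (0.67), and MTF1, that factor, at 0.971 and 1.30 (0.22). The whole list of 9 genes had a median of −0.64. Of the 7 metallothionein transcripts, 6 are under 500 nt, and the list members with longer transcripts had a median of 0.22. Relative to DMSO of day 4, MT1X was at −0.01, MT2A at −0.08, MT1L at −0.47 and MT1G at −2.62. For MT1X (0.53) and MT2A (0.58), NCD38 on day 4 gave higher levels than its own DMSO.

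The metal response element, searched as TGCACNC and TGCGCNC on both strands, is short and occurred in 40.0% of the 7979 promoters and in 29.3% of all 27305. It occurred in 3 of the 4 promoters found for the list, those of MT1X, MT2A and SLC30A1. The last is no metallothionein gene and was higher with NCD38 (0.67). MT1X is shown because it holds 4 copies within 1 stretch, at chr16:56682300-56682443 on GRCh38.p14, with the copies in capitals.
MT1X: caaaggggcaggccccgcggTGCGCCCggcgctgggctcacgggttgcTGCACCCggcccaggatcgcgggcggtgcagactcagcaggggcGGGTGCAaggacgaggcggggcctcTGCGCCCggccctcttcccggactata

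Ribosomal protein genes showed a small shift in one direction. Of 83 expressed members, 74 lay below 0, 0 were 1.5-fold lower or higher, and the median was −0.18. NCD38 gave the lowest level of the 4 day 30 libraries at 72 of the 83, beside 26.4% of all expressed genes. RPL17 was at 5189.7 FPKM with DMSO, 4467 with NCD38-β2P4, 4845 with NCD38-β2PIPP and 3702 with NCD38 (−0.49), RPL35 at 15145 with DMSO and 11043 with NCD38 (−0.46), and RPL5 at 4424 and 3309 (−0.42). Their median over DMSO of day 4 was 0.37, with 2.75 for RPL17, 0.46 for RPL35 and 2.25 for RPL5.

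The genes with the lowest ratios and the same sign against DMSO of day 4 were led by UCP2, an inner mitochondrial membrane carrier. UCP2 was at 30.8 FPKM with DMSO, 34.2 with NCD38-β2P4, 26.5 with NCD38-β2PIPP and 10.2 with NCD38 on day 30, and at 32.9 with DMSO on day 4 (log2 ratios −1.51 over DMSO of day 30 and −1.60 over DMSO of day 4). NCD38 on day 4 gave 51.3, above DMSO of its own day (log2 ratio 0.63), and this difference between the days was not tested. NDUFAF3, an assembly factor of respiratory complex I, was at 108, 113, 109 and 43.6 in the same order of day 30 libraries (−1.30), and MACROD1, a mitochondrial ADP-ribose hydrolase, at 17.4, 20.4, 18.7 and 6.98 (−1.21). KRT8, keratin 8 of simple epithelia, was at 15.4, 19.0, 13.6 and 6.58 (−1.12). Its partner KRT18 was at 121 with DMSO and 99.3 with NCD38 (−0.28). TLCD1 (−1.46), MPND (−1.23), LCE1F (−1.22), C6orf108 (−1.16), ATG16L2 (−1.16), SULT1A1 (−1.11), HCFC1R1 (−1.08), TMEM91 (−1.06) and CPLX1 (−1.04) were among the 15 lowest. LCE1F and TMEM91 were under 1 FPKM with NCD38, and SULT1A1 has near-identical copies.

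Mitochondrial enzymes were lower in part. Among all expressed genes, 40.0% lay below 0 and 2.80% were 1.5-fold lower. Of 21 expressed genes of branched-chain amino acid degradation, 16 lay below 0, 3 were 1.5-fold lower and 0 higher (median −0.22): HIBADH (18.6 FPKM with DMSO and 10.3 with NCD38, −0.79), ALDH6A1 (2.59 and 1.29, −0.65), both of the valine branch, and BCKDHA (12.3 and 7.66, −0.62), a subunit of the complex that commits the keto acids to breakdown. Of 22 genes of fatty acid oxidation, 14 lay below 0 and 4 were 1.5-fold lower (median −0.13), among them ACAD11 (5.62 and 2.84, −0.79), ECI1 (129 and 76.1, −0.75) and ACADS (14.97 and 8.88, −0.69). HADHB, ETFA and ACAA2 of the same pathway were above 0, at 0.24 to 0.36. In the tricarboxylic acid cycle and its entry, 3 of 29 were 1.5-fold lower, PCK2, ME3 (9.18 and 4.79, −0.81) and IDH2 (13.2 and 7.08, −0.81), with a median of 0.05. For IDH2 the conjugates gave 13.7 and 13.6, and for ECI1 130.2 and 139, close to DMSO in both. Over DMSO of day 4, HIBADH (0.97) and ACAD11 (0.85) were higher, and IDH2 (−2.37), BCKDHA (−2.16) and ACADS (−1.77) lower. The list medians were 0.12 for branched-chain amino acids, −0.58 for fatty acid oxidation and −0.46 for the tricarboxylic acid cycle.

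Genes of the primary cilium were lower in a similar pattern. The cilium is a sensory projection built by intraflagellar transport, and a transition zone at its base controls entry. Of 43 expressed genes, 38 lay below 0, 8 were 1.5-fold lower and 0 higher (median −0.21), and NCD38 gave the lowest level of the 4 day 30 libraries at 33. The shares of all expressed genes were 40.0%, 2.80%, 4.00% and 26.4% in the same order. B9D1, of the transition zone, was at 14.7 FPKM with DMSO, 20.7 with NCD38-β2P4, 19.5 with NCD38-β2PIPP and 6.14 with NCD38 (−1.13). TCTN1, of the same zone, was at 6.26, 5.62, 6.61 and 2.64 (−1.0), and IFT88, a core protein of intraflagellar transport, at 2.87, 1.90, 2.04 and 1.33 (−0.73). For each the NCD38 library was the lowest. B9D2, the partner of B9D1, was at 2.25 with DMSO and 3.81 with NCD38 (0.57). Over DMSO of day 4, B9D1 was at −1.17, TCTN1 at 0.10, IFT88 at 0.96 and B9D2 at −1.01, and the list had a median of 0.51.

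**Figure D2:**
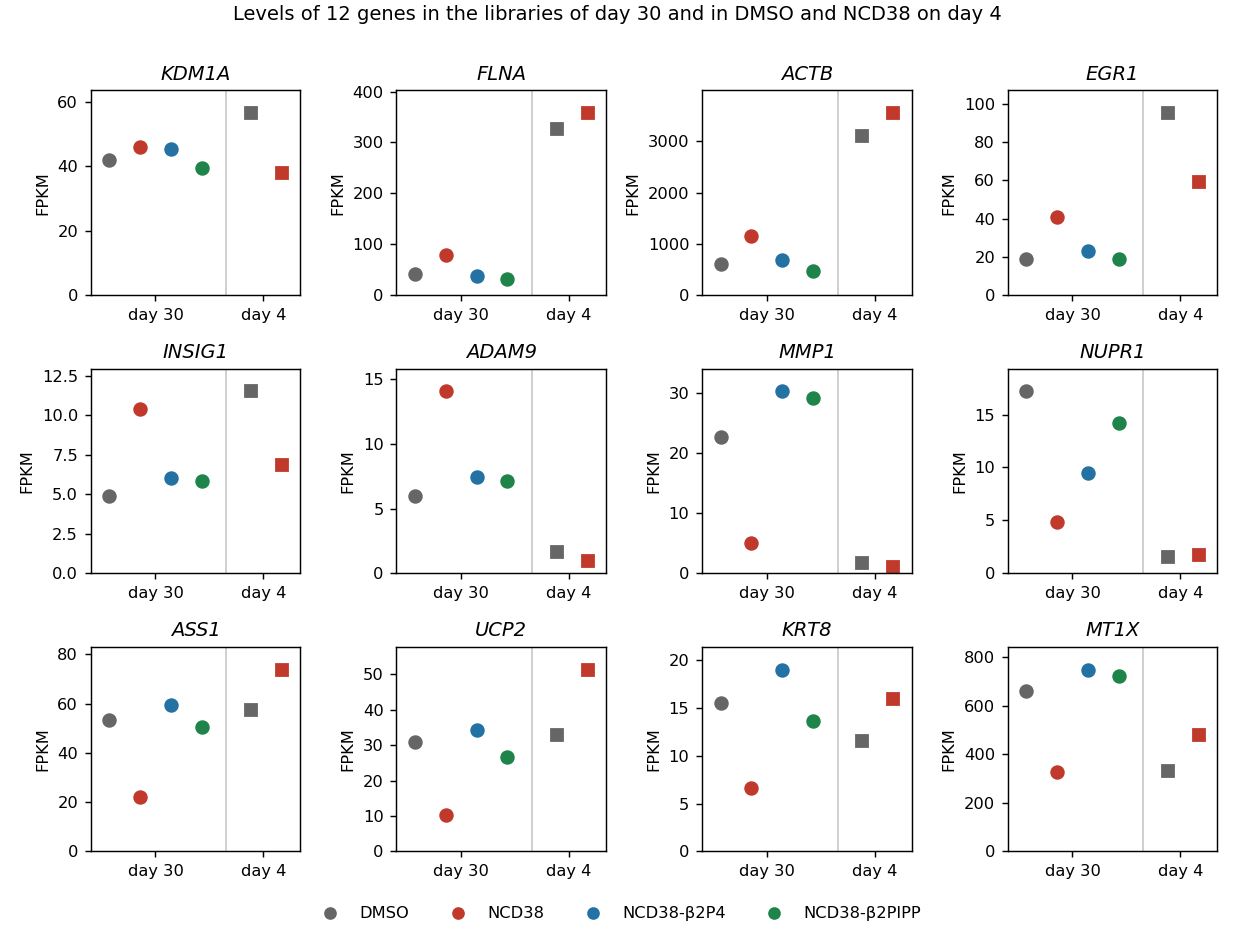
FPKM (y axes, from 0) of 12 genes in the 4 libraries of day 30 (circles) and in DMSO and NCD38 of day 4 (squares), colored by treatment, 1 library per point. On day 30 the NCD38 point is above the 3 others for FLNA, ACTB, EGR1, INSIG1 and ADAM9 and below them for MMP1, NUPR1, ASS1, UCP2, KRT8 and MT1X, while KDM1A lies between 39.4 and 46.1 in the 4 libraries.

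Genes higher and lower on day 30 differed in the base composition and length of their transcripts. The median GC content was 46.5% for the 310 genes 1.5-fold higher, 56.5% for the 219 genes 1.5-fold lower and 49.5% for all 9808. The median length was 2804, 1717 and 3098 nt in the same order. The 77 genes 1.5-fold above each of the other 3 libraries of day 30 did not share the low GC content. Their median was 54.2%, and that of the 129 genes below each was 57.0%. The genes were put in 5 equal groups by GC content. From the group lowest in GC content to the highest, the share 1.5-fold lower went from 0.408% to 4.23%, and the share 1.5-fold higher from 4.23% to 2.19%. The share higher did not fall steadily, with 3.57%, 2.45% and 3.37% in the groups between. Between the shortest and the longest of 5 equal groups by length, the share 1.5-fold lower went from 5.35% to 0.408%. The median log2 ratio ran from 0.15 in the group lowest in GC content to 0.01 in the highest. Subtracting the running median over GC content left the list medians at 0.74 for G2/M, 0.33 for actin, 0.28 for cholesterol, −0.67 for the metallothionein list and −0.30 for the cilium. The subtraction covered GC content alone. The part of length in each result was not tested, nor was that of composition beyond this subtraction.

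The direction of the larger changes was checked against the DMSO library of day 4. Of the 310 genes 1.5-fold higher, 187 were above DMSO of day 4 as well (60.3%), beside 48.5% of all 9808 genes. Of the 219 genes 1.5-fold lower, 151 were also below it, beside 5047 of all 9808. Of the 77 genes 1.5-fold above each of the other 3 libraries of day 30, 35 (45.5%) were above DMSO of day 4, under the share of all genes. Of the 129 genes below each, 96 were below it. The ratios over the 2 DMSO libraries share the NCD38 library by which the genes were picked, so agreement in sign is in part built in. The counts are therefore no independent check of direction.

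NCD38 on day 4, compared with DMSO of its own day, shares no library with the day 30 comparison. Of the 310 genes 1.5-fold higher on day 30, 3 were 1.5-fold higher on day 4 and 108 (34.8%) were 1.5-fold lower, beside 1.21% and 22.8% of all 9808 genes. Of the 219 genes 1.5-fold lower on day 30, 8 were 1.5-fold lower on day 4 (3.65%) and 23 higher (10.5%). Across the 9808 genes, Spearman's rho between the 2 ratios was −0.23, and −0.22 after the trend with GC content was taken from both. The day 4 ratio had a rho of 0.60 with GC content, and genes are not independent replicates. The sample labels give the same dose of 2 μM on both days, whereas the study's methods state another unit for day 4, so whether the doses were equal is unknown.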

How the data were processed

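RNA was taken from RKO cells after 4 or 30 days with DMSO or compound, in 1 library per condition. The authors aligned the reads and computed FPKM per gene with TopHat and Cufflinks, per the study's methods. The submitters' processing notes name HISAT2 2.2.1.0, Cufflinks, BWA 0.5.9, bedtools 2.20.1 and hg19, without saying which served the RNA-seq. The deposited FPKM values were used as given, after 90 repeated entries were left out, and ratios were taken as log2 of FPKM + 1. The pseudocount makes ratios of low genes smaller. With 1 library per condition there is no test, so genes past 1.5-fold or 2-fold were counted, and no p-value was computed. Depth was estimated from the smallest steps of the FPKM values, and counting half-widths from it. Transcript GC content and length came from GENCODE 44 on GRCh37, matched for 93.6% of expressed genes, and promoter sequences from RefSeq on GRCh38.p14. Named genes were KDM1A, the 15 largest ratios in each direction among genes with long transcripts whose ratio exceeded its counting half-width and whose sign was the same against DMSO of day 4, the 3 outermost members of each list at either end, and members of a pathway described by role. Genes outside these, such as DUSP6, ATF4 and CHAC1, were named after their values were seen. Some genes that the rule would name are not reported here, though they count in their lists. The gene lists and the comparison itself were chosen with earlier results of these data known, and 8 lists and 3 alternatives were added after the ratios had been seen. The count of genes standing apart in 1 library is one of these alternatives. Scripts were tested on simulated data. Python 3.11.15, pandas 2.3.3, numpy 2.4.6, scipy 1.17.1 and matplotlib 3.10.9 were used.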

Additional observations from a re-analysis of the deposited data

Results flagged for a closer look

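In 8 gene lists, the median log2 ratio of NCD38 over DMSO lay at least 0.1 to one side of the median of all expressed genes on day 30 (0.06) and at least 0.1 to the other side on day 4 (−0.21). The screen took the 42 lists drawn up first and the 8 added later, less those of small RNAs and of blood, fibroblast and endothelium markers. Lists nearer to either median are not counted. Metallothioneins and zinc response genes had a median log2 ratio of −0.64 on day 30 and 0.38 on day 4. Metalloproteinases and their inhibitors went from 0.16 on day 4 to −0.22 on day 30. Neuronal genes with known REST sites, of which 7 were expressed, had medians of −0.12 on day 30 and 0.29 on day 4, and epithelial genes, also 7, had −0.13 and 0.04. In the other direction, the medians on day 30 and day 4 were 0.25 and −0.39 for genes of ERK output, 0.23 and −0.47 for YAP targets, 0.17 and −0.68 for SR proteins and hnRNPs, which act in splicing, and 0.20 and −0.40 for genes of protein entry into the endoplasmic reticulum. The difference between the days was not tested, since each condition had 1 library. The ratio on day 4 had a Spearman's rho of 0.60 with GC content, and its part in these differences was not tested.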

How the results depend on the processing

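No paired analysis was possible because each condition had 1 library, and no replicate could be left out. Against DMSO of day 4, 2796 genes were 2-fold higher and 1697 lower, and 3714 and 3235 past 1.5-fold. The 109 and 71 genes past 2-fold became 185 and 142 with a pseudocount of 0.1, 64 and 35 with 5, 32 and 27 where no library was under an FPKM of 1, and 36 and 26 with transcripts of at least 500 nt; a mean FPKM of at least 5 left 45 lower. The 435 and 304 genes past 1.5-fold became 688 and 490, 192 and 130, and 268 and 201 under the first 3 of these, and 186 lower with a mean of at least 5. Genes past 1.5-fold in the same direction on both days, 25 higher and 27 lower, became 16 and 14 with a pseudocount of 5, 6 and 10 where no library was under 1 and 3 and 8 with long transcripts, and 82 lower with 0.1. The 77 and 129 genes apart from the other 3 libraries became 141 and 227 with a pseudocount of 0.1, and 25 and 39 with 5.

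Over DMSO of day 4 the list medians were 0.18 for G2/M, −0.75 for actin, −0.23 for immediate early genes, −0.28 for ERK, −0.14 for TGF-β, −0.52 for cholesterol, −0.18 for ATF4, 0.07 for tRNA synthetases, −0.01 for metallothioneins, 0.37 for ribosomal proteins, 0.51 for the cilium, 0.12 for branched-chain amino acids, −0.58 for fatty acid oxidation, −0.46 for the tricarboxylic acid cycle, −0.64 for arginine and proline, 0.68 for translocation and −0.42 for cargo receptors. A pseudocount of 5 gave 0.56 for G2/M, no filter 0.11 for TGF-β, a mean of at least 5 −0.11 for arginine and proline, and scaling by the median or subtracting the GC trend −0.25 and −0.24 for ribosomal proteins. With long transcripts the metallothionein list was at 0.22, since 6 of its 7 metallothioneins are shorter. Among the genes taken from the largest ratios and the outermost list members, those past 1.5-fold on day 30 and of the other sign over DMSO of day 4 were PSRC1 (−0.82), PLK1 (−2.30), TMSB4X (0.47), ACTB (−1.42), FLNA (−2.03), IER2 (−0.80), EGR1 (−1.20), EPHA2 (−0.87), ID1 (−0.14), ID3 (−1.39), INSIG1 (−0.14), NUPR1 (1.21), TCTN1 (0.10), IFT88 (0.96), HIBADH (0.97), ACAD11 (0.85), RPN2 (−0.58), TM9SF2 (−0.20), MMP1 (1.20), MMP10 (0.05) and MMP3 (0.78). The cause of these changes was not tested. Counting error limits genes of low level, such as MMP10, with a half-width of 1.08 on the log2 scale.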

Other observations

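Genes of splicing, interferon response and S phase differed little between NCD38 and DMSO on day 30. Of 34 expressed SR proteins and hnRNPs, 2 were 1.5-fold higher and 0 lower (median 0.17). Of 32 interferon-induced genes, 0 were higher and 1 lower (median 0.02). Of 66 genes of G1/S and S phase, 0 were higher or lower by 1.5-fold, and the median was −0.03, beside 0.79 for the G2/M list. NCD38 gave the lowest level of the 4 day 30 libraries at 35 of these 66, beside 26.4% of all expressed genes. The list median of NCD38-β2P4 over DMSO was 0.25. Clustered histone genes, whose transcripts mostly lack a poly(A) tail, had a median of 0.17, with 4 of 34 at least 1.5-fold higher and 0 lower. Of 269 expressed zinc finger genes of the ZNF series, 2 were higher and 0 lower (median 0.04), and of 86 nuclear-encoded respiratory chain genes 0 were higher and 3 lower (median 0.05). Among all expressed genes, 4.00% were 1.5-fold higher and 2.80% lower. The 3 of 86 are near the latter share.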
